A study of Mus musculus with 48 samples.

Results

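The comparison addressed here is chronic A2A receptor blockade in APP/PS1 cortex, from a mouse model of amyloid deposition in Alzheimer's disease. The 12 arrays whose titles give cortex, genotype APP and agent MSX3 or Water were taken from the 48 arrays of the series, 6 mice per group and 1 array per mouse. All 12 mice were heterozygous males of the APPswe/PS1dE9 line on a C57Bl6/J background, so that APP/PS1 MSX-3 and APP/PS1 H2O share both transgenes. In this line both transgenes are driven by a prion promoter, and the added expression is therefore broad in neurons and glia. MSX-3, which dissolves in water and is converted in the body to the A2A antagonist MSX-2, was given at 0.3 g/L in drinking water from 3 months (4 months in the series' design text) until 9 to 10 months of age. The other group drank H2O. Littermate WT cortex arrays (5 readable on H2O and 5 on MSX-3) and the hippocampus arrays of the same 12 APP/PS1 mice were used only to place the values.

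Adenosine is released by active and by damaged cells, and its A2A receptor couples to Gs/Golf proteins and raises cAMP. The receptor is most abundant in the striatum, where it shares a neuron type with the dopamine D2 receptor, and is sparser at cortical synapses and on astrocytes and microglia. In mice with amyloid plaques, microglia around the plaques switch on a well known set of genes for phagocytosis, lipid handling and chemokines, and astrocytes become reactive. The question put to the arrays was which of these transcripts, if any, differed after the antagonist.

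Levels are log2 processed signals minus the 75th percentile of the array, so that 0 is the 75th percentile of its spots, and differences are MSX-3 minus H2O on the same log2 scale. No transcript passed the test. Of 37904 probes, 0 (0%) were called at a limma BH adjusted p under 0.05 with a fold of at least 1.5, and 0 passed on the adjusted p alone. Unadjusted p under 0.05 was reached by 2166 probes (5.71%), 929 higher and 1237 lower. After quantile normalization these were 999 and 669, and with the percentile taken over kept probes 605 and 1659. Each gene was then represented by its brightest probe, and among these 16658 genes 624 (3.75%) were higher and 258 (1.55%) lower at unadjusted p under 0.05. These shares are the background for every count of genes at unadjusted p under 0.05 below. The background for counts by sign alone is 10035 of the 16658 genes higher and 6623 lower. For mice above an H2O median, no share over all genes is given. No probe was called, and verbs of change are therefore not used for any gene.

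The arrays bounded most differences closely. For 13515 of the 16658 genes (81.1%), the 95% confidence interval of the difference lay inside a 1.5-fold change in either direction. Each gene stands here by its brightest probe, and over all 37904 probes this held for 26728 (70.5%). The median absolute difference over all probes was 0.12, against a median residual SD between mice of 0.24. The share of spots well above background ranged from 61.0% to 66.2% in MSX-3 and from 59.4% to 74.7% in H2O (difference of means -2.52 percentage points, exact permutation p = 0.346, two-sided, smallest possible p 0.00216). Mouse 255 of the H2O group, with 74.7%, was the only one of the 12 scanned on the second scan day. It lay farthest out on the first principal component (29.8% of the variance), and mouse 293 of the MSX-3 group on the second (18.3%).

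**Figure D1:**
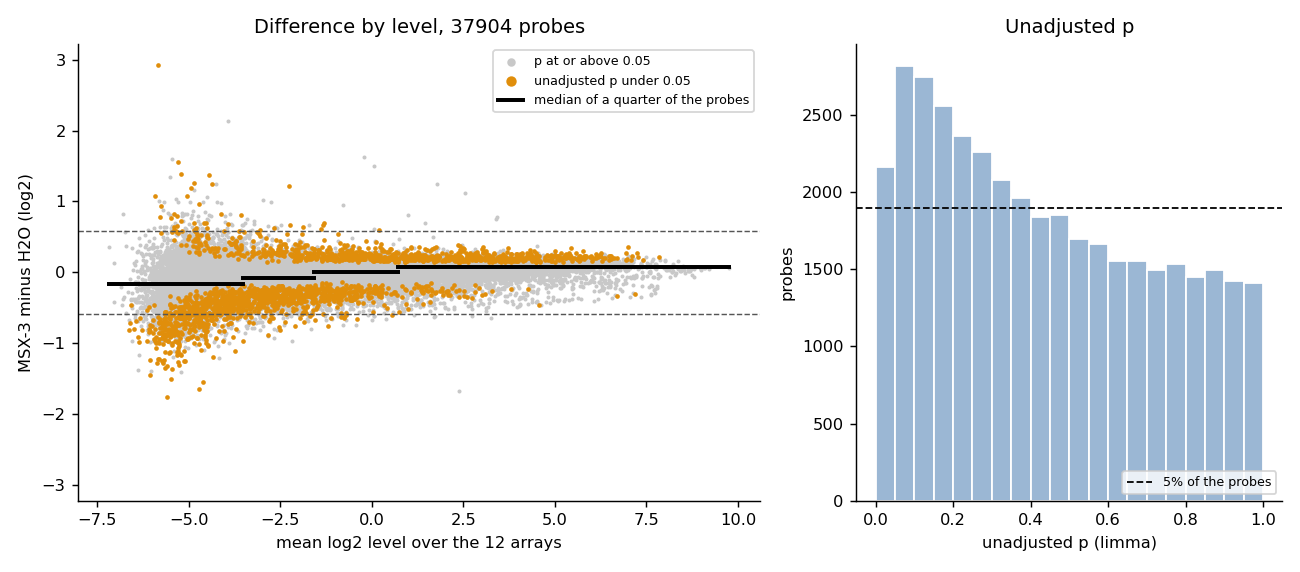
Left, difference MSX-3 minus H2O (log2) of each of 37904 probes against its mean level over the 12 arrays, with probes at unadjusted p under 0.05 in orange, dashed lines at a 1.5-fold change and black bars at the medians of 4 equal bins of probes by level. Right, number of probes by unadjusted p, with a dashed line at 5% of the probes. The medians run from -0.16 in the dimmest bin to 0.07 in the brightest, and no probe passed the adjusted threshold.

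The direction of a difference moved with the brightness of the probe. With the probes in 4 equal bins from the dimmest to the brightest, the median difference was -0.16, -0.08, 0.00 and 0.07. In the brightest bin 75.3% of probes were higher in MSX-3, and in the dimmest 25.4%. Without mouse 255 the 4 medians were -0.07, -0.04, 0.01 and 0.06, and after quantile normalization they were -0.03, 0.00, 0.02 and 0.01. For several lists of bright genes, the number of members in the brightest bin or the median after quantile normalization is given beside the count.

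The target of the drug came first. Adora2a, the A2A receptor, had levels from -3.28 to -2.48 (median -2.78) in MSX-3 and from -3.20 to -2.33 (median -3.08) in H2O. The groups overlapped over most of their ranges. The difference was 0.11 (95% CI -0.27 to 0.49, adjusted p = 0.853), and within the 3 slides that held both groups it was 0.39, -0.19 and 0.37. Here and below the slides come in the same order. They set MSX-3 mouse 281 against H2O mouse 323, then mice 267 and 283 against 261 and 81. Last came mouse 266 against mice 259 and 325. Mice 255, 293 and 319 were on none of these slides. Adora1, the inhibitory and most abundant adenosine receptor of the cortex, had a median of 3.88 (3.81 to 4.08) in MSX-3 and of 3.75 (3.51 to 3.95) in H2O. All 6 MSX-3 mice were above the H2O median, and the difference was 0.18 (95% CI -0.02 to 0.38, adjusted p = 0.732). Adora3, a Gi-coupled receptor found on microglia in rodents, had the same median of -1.57 in both groups (difference 0.04). The intervals of all 4 adenosine receptors lay inside a 1.5-fold change.

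Adenosine is formed outside cells from nucleotides by ectonucleotidases and removed through transporters, adenosine kinase and deaminase. Of 18 measured genes of this machinery, 14 were higher and 4 lower, 0 at unadjusted p under 0.05, with a median of 0.03 beside 0.04 over all genes. The 3 with the smallest p were Entpd3, an ectonucleotidase of neurons (0.17), Slc29a1, the equilibrative nucleoside transporter ENT1 (0.14), and Panx1, a channel for ATP release (0.12). Their groups overlapped, and their adjusted p values were 0.732, 0.743 and 0.749.

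Downstream of the receptor, 32 genes of the cAMP pathway were measured, 24 of them in the brightest bin of probes. Of these 25 were higher and 7 lower (median 0.06, and -0.01 after quantile normalization), with 1 higher and 2 lower at unadjusted p under 0.05. Adcy8, a calcium-stimulated adenylyl cyclase, had levels from -2.66 to -1.99 (median -2.38) in MSX-3 and from -3.18 to -2.50 (median -2.59) in H2O. That is a difference of 0.36 (95% CI 0.05 to 0.68, limma adjusted p = 0.732). Creb1, the transcription factor that protein kinase A phosphorylates, was -0.35 to 0.15 (median 0.05) in MSX-3 and 0.08 to 0.26 (median 0.18) in H2O. No MSX-3 mouse was above the H2O median of Creb1 (difference -0.22, 95% CI -0.43 to -0.01, limma adjusted p = 0.732), but within the 3 slides the difference was 0.07, -0.36 and -0.48. Adcy6, a calcium-inhibited cyclase, differed by -0.27 (95% CI -0.55 to -0.00, limma adjusted p = 0.732).

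Adora2a and Drd2, which striatopallidal neurons express together, were compared across the 12 mice as the 1 relation computed. Drd2 was well above background on only 2 of 6 arrays in each group. Pearson's r was 0.33 (p = 0.291) and Spearman's rho 0.32 (p = 0.307) by permutation over the 12 mice. Without the 2 mice farthest from the median of Drd2, mice 255 and 281, r was 0.26 (permutation p = 0.462). Within the groups r was 0.18 in MSX-3 (exact permutation p = 0.667) and 0.63 in H2O (exact permutation p = 0.185). Among striatal markers 7 of 14 measured genes were higher and 7 lower (median 0.01, and -0.02 after quantile normalization).

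Turning to amyloid precursor protein, the App probe with the highest mean had levels from 5.85 to 6.17 (median 5.91) in MSX-3 and from 5.54 to 5.99 (median 5.88) in H2O. The groups overlapped, and the difference was 0.12 (95% CI -0.09 to 0.32, adjusted p = 0.742). A dimmer App probe gave -0.21 (limma adjusted p = 0.786), so the 2 probes differed in sign. Prnp, whose promoter sequence drives the transgenes, was 7.43 to 7.56 (median 7.48) in MSX-3 and 7.09 to 7.45 (median 7.33) in H2O, a difference of 0.18 (95% CI 0.01 to 0.34, limma adjusted p = 0.732). A second, dimmer Prnp probe gave 0.02 (limma adjusted p = 0.951). Levels of the brighter Prnp probe in both groups were far above the WT H2O range of 5.14 to 5.37.

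Of 21 measured genes that process or sort APP, 17 were higher and 4 lower (median 0.07, and 0.01 after quantile normalization, with 14 of the 21 in the brightest bin), and 1 was higher at unadjusted p under 0.05. That gene was Itm2b, which encodes the BRI2 protein, a partner of APP that hinders its cleavage. Itm2b levels were 3.84 to 4.20 (median 3.98) in MSX-3 and 3.76 to 3.86 (median 3.82) in H2O, a difference of 0.18 (95% CI 0.02 to 0.33, limma adjusted p = 0.732). Psenen, a subunit of gamma-secretase, differed by 0.18 (95% CI -0.03 to 0.38), and Aplp1, a neuronal homologue of APP, by 0.16 (95% CI -0.03 to 0.34). All 6 MSX-3 mice lay above the H2O median for Itm2b and Aplp1 and 5 of 6 for Psenen. In 20 of the 21 genes the interval lay inside a 1.5-fold change.

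Genes for the degradation and clearance of amyloid beta gave 17 higher and 5 lower of 22 measured (median 0.07, and 0.04 after quantile normalization). Plau, the urokinase that activates plasminogen, had levels from -1.77 to -1.57 (median -1.61) in MSX-3 and from -2.06 to -1.60 (median -1.95) in H2O. Every MSX-3 mouse was above the H2O median of Plau, and the difference was 0.21 (95% CI 0.01 to 0.42, limma adjusted p = 0.732). Abcg1, a sterol transporter, differed by 0.13 (95% CI -0.02 to 0.28). Ace, a peptidase able to cut amyloid beta, differed by -0.47 (95% CI -1.01 to 0.08), with 1 MSX-3 mouse above the H2O median.

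The microglial genes that mark plaques were at nearly the same level in both groups. Clec7a, the Dectin-1 receptor, ran from 0.36 to 0.90 (median 0.55) in MSX-3 and from 0.22 to 0.73 (median 0.46) in H2O, while the 5 WT H2O mice ran from -5.39 to -4.42. The difference was 0.11 (95% CI -0.13 to 0.35, adjusted p = 0.775). Cst7, cystatin F, ran from 1.83 to 2.25 (median 2.10) in MSX-3 and from 1.46 to 2.35 (median 2.14) in H2O, with a difference of 0.01 (95% CI -0.28 to 0.31, adjusted p = 0.982). For both genes the treatments overlapped, and the interval lay inside a 1.5-fold change. In bulk tissue, fewer cells of a type and less RNA per cell cannot be told apart.

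Itgax, the integrin chain CD11c, ran from -1.12 to -0.11 (median -0.58) in MSX-3 and from -0.87 to 0.03 (median -0.49) in H2O, a difference of -0.17 (95% CI -0.56 to 0.22, adjusted p = 0.789). Cd68, a lysosomal glycoprotein of phagocytes, ran from 1.75 to 2.05 (median 1.92) in MSX-3 and from 1.42 to 2.11 (median 1.95) in H2O, a difference of 0.03 (95% CI -0.21 to 0.27, adjusted p = 0.939). A dimmer Cd68 probe gave -0.12, on the other side of 0. Over the whole list of genes of microglia around plaques, 19 of 25 measured were higher and 6 lower (median 0.07, and 0.00 after quantile normalization, with 16 of the 25 in the brightest bin), and 0 reached an unadjusted p under 0.05. The smallest p values of the list belonged to the cathepsins Ctsl (0.15, 95% CI -0.00 to 0.30) and Ctsb (0.15, 95% CI -0.04 to 0.35) and to Ch25h, cholesterol 25-hydroxylase (0.20, 95% CI -0.10 to 0.50).

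In nearly all of these genes both APP/PS1 groups lay above WT H2O cortex. In MSX-3, 24 of the 25 genes had all 6 mice above all 5 WT H2O mice, which held for 767 of all 16658 genes (4.6%). In H2O all 25 did, against 559 of all genes (3.36%). The mean level of the list was 1.86 to 2.09 (median 1.97) in MSX-3, 1.62 to 2.08 (median 1.95) in H2O and -0.19 to -0.03 in WT H2O. In WT MSX-3 cortex, which had the same treatment as the MSX-3 group, it was -0.18 to -0.01.

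**Figure D2:**
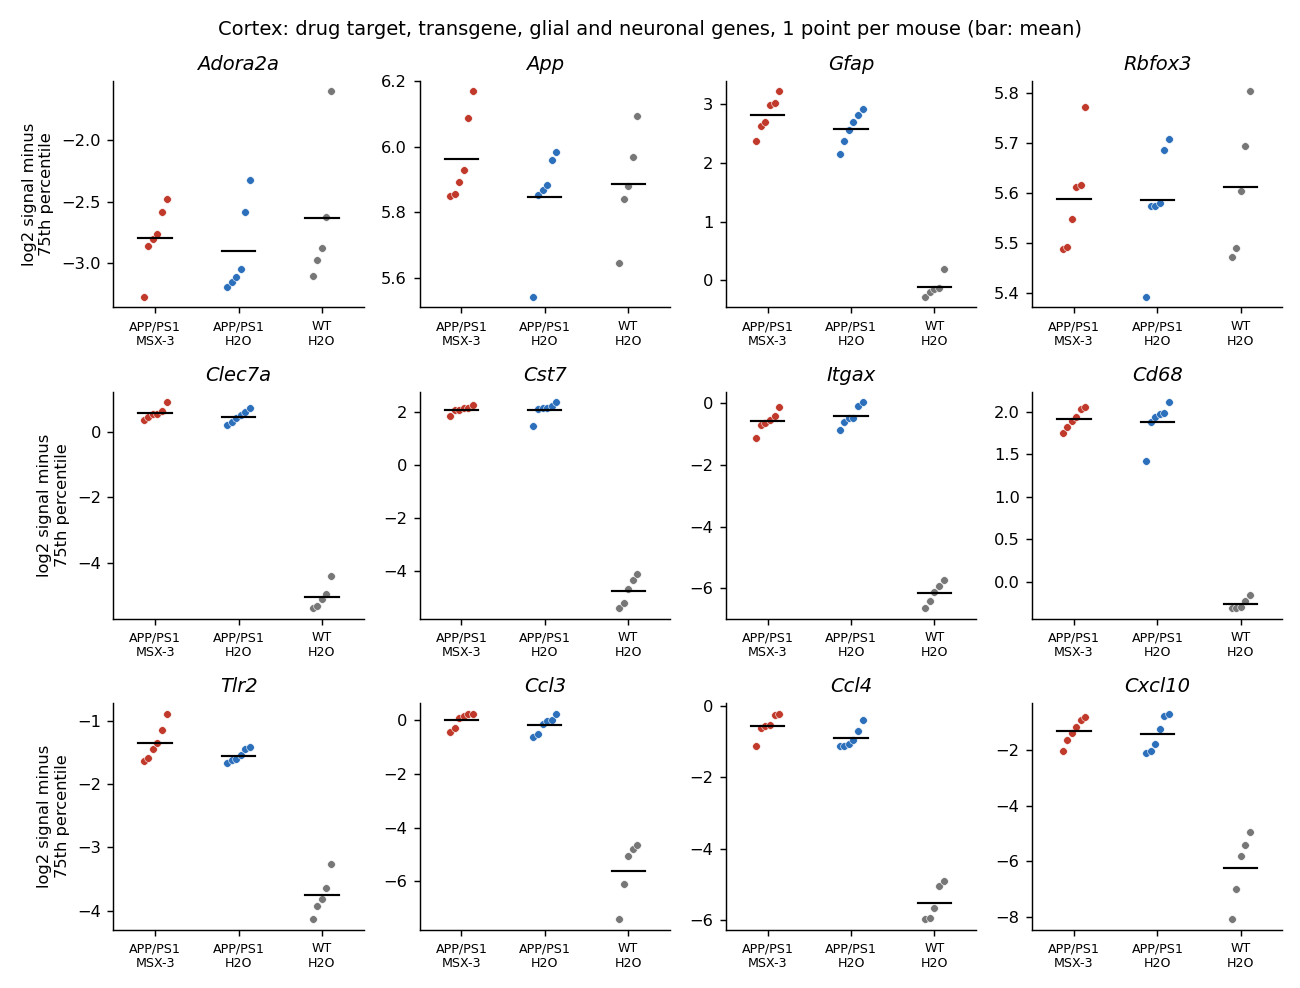
Level (log2 signal minus the 75th percentile of the array) of 12 genes in each mouse of APP/PS1 MSX-3 (6), APP/PS1 H2O (6) and WT H2O (5), with points sorted by value within a group and bars at the means. MSX-3 and H2O overlap in every panel, and both lie above the WT mice for Gfap, Clec7a, Cst7, Itgax, Cd68, Tlr2, Ccl3, Ccl4 and Cxcl10.

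Genes listed under resting microglia gave 10 higher and 6 lower of 16 (median 0.03). The name is only that of the list. In MSX-3, 12 of the 16 had all 6 mice above all 5 WT H2O mice (4.6% of all genes), and in H2O 10 did (3.36%). Gpr84, a receptor for medium-chain fatty acids that inflammation induces in microglia, was the 1 gene of the list with an unadjusted p under 0.05. It ran from -0.67 to -0.33 (median -0.56) in MSX-3 and from -0.89 to -0.47 (median -0.80) in H2O, and all 6 MSX-3 mice were above the H2O median. The difference was 0.24 (95% CI 0.04 to 0.44, limma adjusted p = 0.732), and 0.36, 0.32 and 0.11 within the 3 slides. P2ry13, an ADP receptor, differed by 0.19 (95% CI -0.05 to 0.43), and Csf1r, the receptor that microglia need to survive, by 0.14 (95% CI -0.09 to 0.36).

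Chemokine and cytokine transcripts were not separated by treatment. Ccl4, which attracts monocytes and T cells, ran from -1.12 to -0.22 (median -0.55) in MSX-3 and from -1.12 to -0.40 (median -1.0) in H2O. It was higher by 0.34 (95% CI -0.02 to 0.70, limma adjusted p = 0.732), and a dimmer Ccl4 probe gave 0.36 (limma adjusted p = 0.732). Ccl3, a related chemokine, ran from -0.45 to 0.23 (median 0.11) in MSX-3 and from -0.64 to 0.24 (median -0.10) in H2O, a difference of 0.17 (95% CI -0.19 to 0.54). Both chemokines were at most -4.63 in the WT H2O mice, where 3 of 5 arrays read them well above background.

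Cxcl10, an interferon-induced ligand of Cxcr3, had the widest spread of these genes, from -2.03 to -0.80 (median -1.25) in MSX-3 and from -2.10 to -0.67 (median -1.49) in H2O (difference 0.11, 95% CI -0.52 to 0.74). Its interval reached past a 1.5-fold change on the higher side. Ccl5 differed by 0.01 (95% CI -0.26 to 0.27). Tlr2, a receptor for bacterial lipoproteins, differed by 0.21 (95% CI -0.06 to 0.47), and Il1b, read on 2 of 6 MSX-3 and 3 of 6 H2O arrays, by 0.40 (95% CI -0.01 to 0.82). The list of 24 measured chemokines, cytokines and Toll-like receptors had 15 higher, 9 lower and 0 at unadjusted p under 0.05 (median 0.04).

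Complement, which tags synapses and plaques for microglia, had 10 higher and 5 lower of 15 measured genes (median 0.06). C1ra, a protease of the first complement complex, was the 1 at unadjusted p under 0.05. Its levels were -1.58 to -0.94 (median -1.53) in MSX-3 and -1.88 to -1.61 (median -1.75) in H2O, so the groups did not overlap, which held for 89 of 37804 probes (0.235%). The difference in C1ra was 0.33 (95% CI 0.09 to 0.58, limma adjusted p = 0.732), and within the slides it was 0.25, 0.07 and 0.33. C5ar1, the receptor for the fragment C5a, differed by 0.33 (95% CI -0.02 to 0.67) and Cd59a, an inhibitor of the membrane attack complex, by -0.39 (95% CI -0.86 to 0.07).

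Among astrocyte genes, Gfap, the intermediate filament that reactive astrocytes accumulate, ran from 2.38 to 3.22 (median 2.84) in MSX-3 and from 2.15 to 2.92 (median 2.63) in H2O. WT H2O mice ran from -0.29 to 0.20, below every APP/PS1 mouse. The treatment difference was 0.24 (95% CI -0.12 to 0.59, adjusted p = 0.732), and -0.19, 0.43 and 0.28 within the slides. Serpina3n, a secreted protease inhibitor of reactive astrocytes, also differed by 0.24 (95% CI -0.07 to 0.54). Of 17 reactive astrocyte genes 9 were higher and 8 lower (median 0.02), and of 16 general astrocyte genes 11 were higher and 5 lower (median 0.07, and 0.00 after quantile normalization, with 14 of the 16 in the brightest bin), 0 of either at unadjusted p under 0.05. Kcnj10, the potassium channel Kir4.1, Slc7a10, a serine transporter, and Aldoc, an aldolase, led the general list with 0.12, 0.13 and 0.12, all in mostly overlapping groups.

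Genes of the interferon response were mostly lower in MSX-3, by differences that did not pass the test. Type I interferons act through a receptor that activates a complex of transcription factors, and this complex binds promoters with repeats of GAAA letters. In the cortex 18 of 19 measured genes were lower in MSX-3 and 1 higher, with a median of -0.20 beside 0.04 over all genes. Only 1 of the 19 was lower at unadjusted p under 0.05. That gene, Ifit1, an inhibitor of viral translation, ran from -3.58 to -2.41 (median -3.10) in MSX-3 and from -2.90 to -1.47 (median -2.59) in H2O.

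The groups overlapped for Ifit1, and 1 MSX-3 mouse was above the H2O median. The difference was -0.61 (95% CI -1.16 to -0.05, limma adjusted p = 0.732), and -0.60, -0.34 and -1.39 within the 3 slides. Oasl2, of the oligoadenylate synthetase family, differed by -0.30 (95% CI -0.72 to 0.12). Ifit2 was the gene with the opposite sign, at 0.11 (95% CI -0.28 to 0.50).

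The sequence upstream of 2 genes of this list is shown because their promoters hold the repeats that the complex recognises. Sequences are the 150 bases before the transcription start, 5' to 3' on the strand of the gene, from RefSeq (GRCm38.p6). Capitals mark matches to a motif of GAAA, any 2 bases and GAAA on either strand (TTTC, any 2 bases and TTTC on the other), and overlapping matches run together. Isg15, a ubiquitin-like modifier, was chosen with its values seen. Ifit1 at chr19:34640739-34640888 (plus strand) holds 2 matches and Isg15 at chr4:156200819-156200968 (minus strand) holds 3.
Ifit1: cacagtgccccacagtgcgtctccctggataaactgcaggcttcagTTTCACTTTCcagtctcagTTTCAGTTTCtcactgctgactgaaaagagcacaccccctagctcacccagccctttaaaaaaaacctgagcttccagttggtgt
Isg15: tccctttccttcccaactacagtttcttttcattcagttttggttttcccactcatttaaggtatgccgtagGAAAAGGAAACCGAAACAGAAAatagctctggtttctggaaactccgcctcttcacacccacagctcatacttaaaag

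Windows of 300 bases (250 before and 50 after the start) were at hand for 14 of the 20 genes of the list, 16 windows in all. Of the 14 genes 8 held a match in 1 or more of their windows. Of all 32851 windows 1131 held one (3.44%), a share of windows and not of genes. Isg15, with 3 matches, ran from 0.01 to 0.87 (median 0.62) in MSX-3 and from 0.44 to 1.12 (median 0.76) in H2O, a difference of -0.24 (95% CI -0.60 to 0.12).

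The mean level of the 19 interferon genes was -1.40 to -0.83 (median -1.10) in MSX-3 and -1.34 to -0.65 (median -0.92) in H2O, so the groups overlapped widely. In WT H2O cortex it was -2.53 to -2.24, and 14 of the 19 genes had all 6 MSX-3 mice above all 5 WT H2O mice (4.6% of all genes). Between MSX-3 and H2O in WT cortex the same list gave 14 higher and 5 lower (median 0.27), and in the hippocampus of the 12 APP/PS1 mice 3 higher and 15 lower of 18 measured (median -0.16). Of the readable WT MSX-3 cortex arrays, only that of mouse 282 shared a slide with WT H2O cortex arrays (mice 56, 71 and 318). For the other WT mice, treatment and slide cannot be told apart, here and below. The difference between genotypes was -0.96 for Ifit1 and -0.74 for Oasl2, both at a limma adjusted p of 0.753, and was not tested for the list. Over 28 other ways of processing and leaving out mice, the median of the list in APP/PS1 cortex stayed between -0.31 and -0.12. Only 2 of the 19 genes were in the brightest bin of probes.

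**Figure D3:**
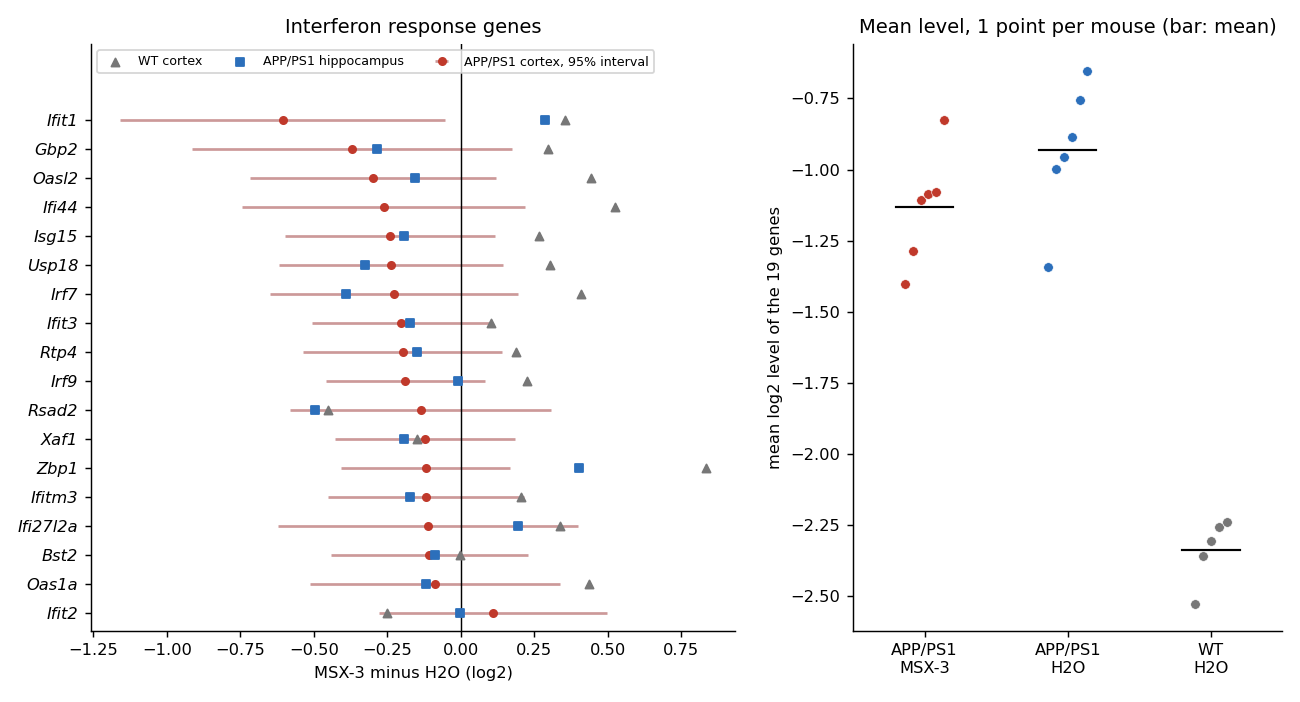
Left, difference MSX-3 minus H2O (log2) of 18 of the 19 interferon response genes in APP/PS1 cortex with 95% confidence intervals, with triangles for WT cortex and squares for the hippocampus of the APP/PS1 mice. Right, mean level of the 19 genes in each mouse of APP/PS1 MSX-3, APP/PS1 H2O and WT H2O. All cortical differences shown are below 0 except that of Ifit2, and the interval of Ifit1 alone leaves out 0.

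Neuronal and synaptic genes showed small differences of both signs. Rbfox3, the neuronal antigen NeuN, had a median of 5.58 in both groups (5.49 to 5.77 in MSX-3, 5.39 to 5.71 in H2O) and a difference of 0.00 (95% CI -0.17 to 0.17, adjusted p = 0.995). Ppp1r9b, spinophilin of dendritic spines, differed by 0.02 (95% CI -0.17 to 0.20), and Dlg4, the scaffold PSD-95, by -0.12 (95% CI -0.38 to 0.14). The AMPA receptor subunits Gria1 and Gria2 differed by -0.03 (95% CI -0.23 to 0.17) and -0.06 (95% CI -0.34 to 0.23). For each of these 5 genes the groups overlapped and the interval lay inside a 1.5-fold change.

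Grin2b, the NMDA receptor subunit GluN2B, ran from 1.05 to 1.62 (median 1.34) in MSX-3 and from 1.28 to 2.05 (median 1.69) in H2O. No MSX-3 mouse was above the H2O median. The difference was -0.32 (95% CI -0.64 to 0.00, limma adjusted p = 0.732), a second, dimmer Grin2b probe gave -0.00, and the slides gave 0.24, -0.01 and -0.79. Among 22 glutamate receptors 6 were higher and 16 lower (median -0.03), 0 at unadjusted p under 0.05, although 15 of the 22 were in the brightest bin. The metabotropic receptor Grm5 differed by -0.19 (95% CI -0.41 to 0.04).

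Presynaptic release genes gave 15 higher and 8 lower of 23 (median 0.06, and 0.01 after quantile normalization, with 20 of the 23 in the brightest bin), with 1 in each direction at unadjusted p under 0.05. Vamp1, a vesicle SNARE, ran from 2.88 to 3.16 (median 3.02) in MSX-3 and from 2.29 to 3.00 (median 2.77) in H2O, with all 6 MSX-3 mice above the H2O median (difference 0.29, 95% CI 0.03 to 0.56, limma adjusted p = 0.732). Cplx2, complexin II, which clamps the SNARE complex, ran from 6.60 to 7.38 (median 7.01) in MSX-3 and from 7.16 to 7.49 (median 7.32) in H2O (difference -0.31, 95% CI -0.61 to -0.01, limma adjusted p = 0.732). Within the slides Cplx2 differed by -0.06, -0.06 and -0.72. Postsynaptic scaffold genes gave 10 higher and 11 lower of 21 (median -0.00), led by Shank1 (-0.21), Grip1 (-0.12) and Homer2 (-0.27), none at unadjusted p under 0.05. The 7 measured neurotrophin genes had a median of 0.03, with Ngfr, the p75 receptor, at -0.26 (95% CI -0.53 to 0.02).

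Immediate early genes, which neuronal activity switches on within minutes, had wide ranges in both groups. Arc, a regulator of AMPA receptor traffic, ran from 1.67 to 4.96 (median 2.77) in MSX-3 and from 2.34 to 5.03 (median 3.39) in H2O. The groups overlapped over most of this range, with a difference of -0.64 (95% CI -1.90 to 0.62, adjusted p = 0.76). Egr2 differed by -0.62 (95% CI -1.78 to 0.54) and Klf4 by -0.37 (95% CI -0.96 to 0.21). Of the 20 genes 4 were higher and 16 lower (median -0.16), 0 at unadjusted p under 0.05, and the interval lay inside a 1.5-fold change for 5 of them. The mean level of the list was 0.65 to 2.06 (median 0.86) in MSX-3 and 0.83 to 2.0 (median 1.08) in H2O.

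Clock genes gave 4 higher and 12 lower of 16 (median -0.06). Per2, a repressor of the clock, ran from -0.25 to 1.14 (median 0.10) in MSX-3 and from 0.33 to 1.0 (median 0.55) in H2O (difference -0.33, 95% CI -0.77 to 0.12). Npas2, a partner of the activator Arntl, differed by -0.23 (95% CI -0.56 to 0.10), and Arntl itself by 0.21 (95% CI -0.10 to 0.52). All 3 overlapped between the groups.

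Lysosome and autophagy genes were nearly all a little higher, and nearly all bright. Of 29 genes 27 were higher and 2 lower (median 0.10), 24 of them in the brightest bin of probes, and after quantile normalization the median was 0.04. Map1lc3b, the autophagosome protein LC3B, was the 1 at unadjusted p under 0.05. It ran from 3.14 to 3.51 (median 3.33) in MSX-3 and from 2.94 to 3.36 (median 3.07) in H2O, with a difference of 0.21 (95% CI 0.00 to 0.42, limma adjusted p = 0.732). Lamp1, a lysosomal membrane protein, differed by 0.17 (95% CI -0.00 to 0.35). The interval of all 29 genes lay inside a 1.5-fold change.

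Heat shock and stress genes gave 15 higher and 3 lower of 18 (median 0.13, and 0.05 after quantile normalization, with 13 in the brightest bin), 0 at unadjusted p under 0.05. The inducible chaperone Hspa1a differed by 0.21 (95% CI -0.02 to 0.45), the mitochondrial co-chaperone Hspe1 by 0.19 (95% CI -0.02 to 0.41) and Trib3, a target of the integrated stress response, by 0.21 (95% CI -0.07 to 0.49). For Hspa1a and Hspe1 all 6 MSX-3 mice were above the H2O median. Gapdh, whose protein was the reference of the study's blots, differed by 0.28 (95% CI 0.03 to 0.52, limma adjusted p = 0.732). Ppia, cyclophilin A, the reference transcript of its qPCR, differed by 0.15 (95% CI -0.04 to 0.35). Both are bright, and all 6 Gapdh probes were higher, by 0.13 to 0.28.

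**Figure D4:**
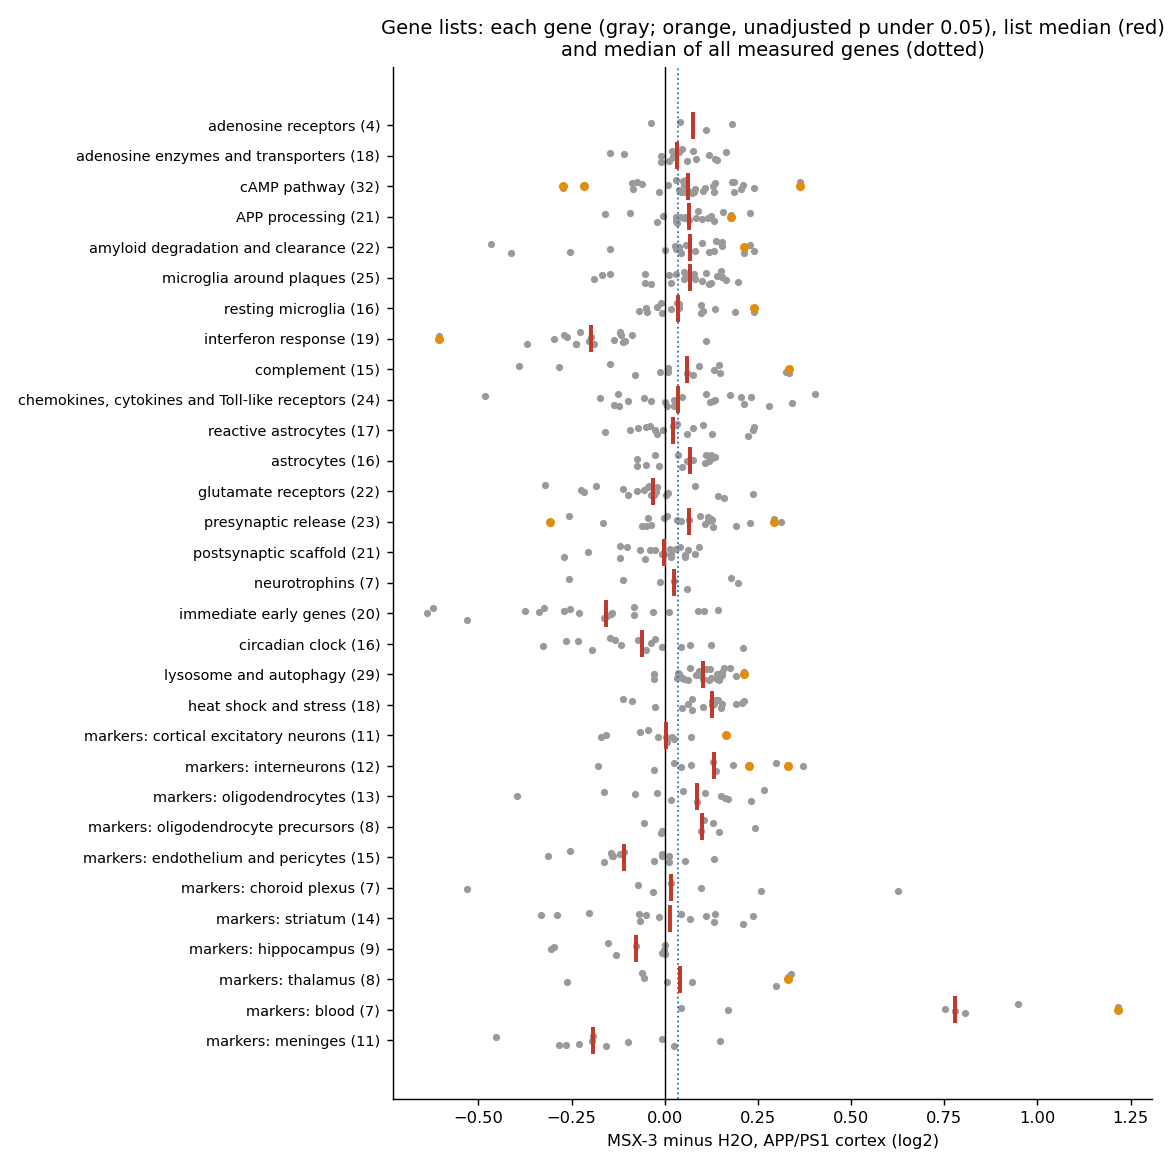
Difference MSX-3 minus H2O (log2) of the genes of 31 lists (gray points, orange at unadjusted p under 0.05), with the median of each list in red and the median of all 16658 genes as a dotted line at 0.04. The blood list lies farthest to the right with a median of 0.78, and the lists with the lowest medians are interferon response, meninges and immediate early genes.

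Markers of cell types and neighbouring regions were read for their own sake. Neurons of the cortex were level, with 6 higher and 5 lower of 11 excitatory markers (median 0.00, and -0.04 after quantile normalization). Among them Tbr1, a transcription factor of deep layers, ran from 4.12 to 4.30 (median 4.19) in MSX-3 and from 3.91 to 4.17 (median 4.06) in H2O (difference 0.16, 95% CI 0.02 to 0.31, limma adjusted p = 0.732). Interneuron markers gave 10 higher and 2 lower of 12 (median 0.13, and 0.09 after quantile normalization, with 8 in the brightest bin), 2 of them at unadjusted p under 0.05. These were Gad1, which makes GABA, at 0.23 (95% CI 0.01 to 0.44), and Calb2, calretinin, at 0.33 (95% CI 0.01 to 0.65), both with all 6 MSX-3 mice above the H2O median.

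Oligodendrocyte genes were higher in 9 of 13 (median 0.09, and -0.01 with the slide as a block) and precursor genes in 5 of 8 (median 0.10), with Olig1 at 0.24 (95% CI -0.02 to 0.50). Endothelial and pericyte genes were lower in 11 of 15 (median -0.11) and meningeal genes in 9 of 11 (median -0.19, but 0.07 with the slide as a block and 0.06 without mice 255 and 293), 0 of either at unadjusted p under 0.05. Hippocampal markers were lower in 9 of 9, with 3 in the brightest bin. Their median was -0.08, and -0.14 to -0.01 over the 28 other ways of processing and leaving out mice. Thalamic markers were higher in 5 of 8 (median 0.04, and -0.00 after quantile normalization). Of 10 choroid plexus markers 7 were measured, with medians of the list level of -3.64 and -3.85.

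Blood differed most of the marker lists and varied most between mice. All 7 measured genes of red blood cells were higher (median 0.78). Hbb-b1, a beta globin, ran from -2.72 to 0.30 (median -1.85) in MSX-3 and from -4.54 to -1.65 (median -2.70) in H2O, a difference of 1.22 (95% CI 0.02 to 2.41, limma adjusted p = 0.732). The mean level of the list was -1.21 to 1.72 (median -0.77) in MSX-3 and -2.02 to -0.13 (median -1.25) in H2O, and the highest value was that of mouse 293. Over the 28 alternatives the median difference of the list stayed between 0.26 and 1.02, and it was 1.31 in WT cortex and 0.88 in the hippocampus of the APP/PS1 mice. Globin genes share near-identical sequence, so their probes are not independent, and the part of blood in other differences was not tested.

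The genes with the smallest p values were named by rank alone, 10 in each direction, and all had a limma adjusted p of 0.732. On the higher side Dusp2, a phosphatase that switches off MAP kinases, ran from -1.31 to -0.99 (median -1.20) in MSX-3 and from -1.66 to -1.37 (median -1.56) in H2O. The groups did not overlap, the difference was 0.36 (95% CI 0.20 to 0.53), and within the slides it was 0.30, 0.40 and 0.18. Whrn, the scaffold whirlin of hair cells and photoreceptors, ran from 2.45 to 2.75 (median 2.49) in MSX-3 and from 1.92 to 2.37 (median 2.19) in H2O (difference 0.39, 95% CI 0.18 to 0.59). Its other 2 probes gave -0.02 and -0.11. Nhlrc1, the ubiquitin ligase malin that is mutated in Lafora disease, ran from 1.30 to 1.38 (median 1.35) in MSX-3 and from 1.03 to 1.22 (median 1.09) in H2O (difference 0.24, 95% CI 0.11 to 0.37).

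Cbln4, a secreted organiser of synapses, differed by 0.54 (95% CI 0.22 to 0.85) with overlapping groups, Pthlh, parathyroid hormone-related protein, by 0.45 (95% CI 0.18 to 0.71) and Bcat1, the cytosolic transaminase of branched-chain amino acids, by 0.24 (95% CI 0.09 to 0.38) without overlap. The other 4 were Zfp473 (0.62), C2cd2 (0.29), Map10 (0.36) and Glp2r, the GLP-2 receptor (0.39, with -0.08 from a second probe). Zfp473 was well above background on 5 of 6 MSX-3 and 2 of 6 H2O arrays.

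On the lower side Mns1, a protein of cilia and sperm tails, ran from -3.18 to -2.85 (median -3.06) in MSX-3 and from -2.85 to -2.09 (median -2.27) in H2O (difference -0.65, 95% CI -0.91 to -0.38). The difference in Mns1 was -0.64 in the hippocampus of the same mice and -0.06 in WT cortex. Chrm4, the muscarinic M4 receptor, ran from -4.30 to -3.71 (median -3.91) in MSX-3 and from -3.69 to -3.40 (median -3.56) in H2O without overlap (difference -0.42, 95% CI -0.64 to -0.21). Within the slides Chrm4 differed by -0.50, -0.23 and -0.45, and in WT cortex by -0.36.

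Cep44, a centrosomal protein, also did not overlap (difference -0.44, 95% CI -0.64 to -0.25), but was well above background on 2 of 6 MSX-3 and 5 of 6 H2O arrays. Prpf38b, a splicing factor, differed by -0.37 (95% CI -0.57 to -0.17) and Zfp667, a zinc finger protein, by -0.30 (95% CI -0.47 to -0.13), the latter without overlap. Gm15246 differed by -0.59, Emx2os, an antisense transcript of Emx2, by -1.0 and Vmn1r216, a vomeronasal receptor, by -1.65. Emx2os was well above background on 2 of 6 MSX-3 and 6 of 6 H2O arrays, and Vmn1r216 on 1 of 6 and 5 of 6. Speer5-ps1 and Trim29 were well above background on 0 of 6 MSX-3 arrays and on 2 and 3 of 6 H2O arrays, and no fold is given because the H2O means lay below the lowest signals that could be read.

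**Figure D5:**
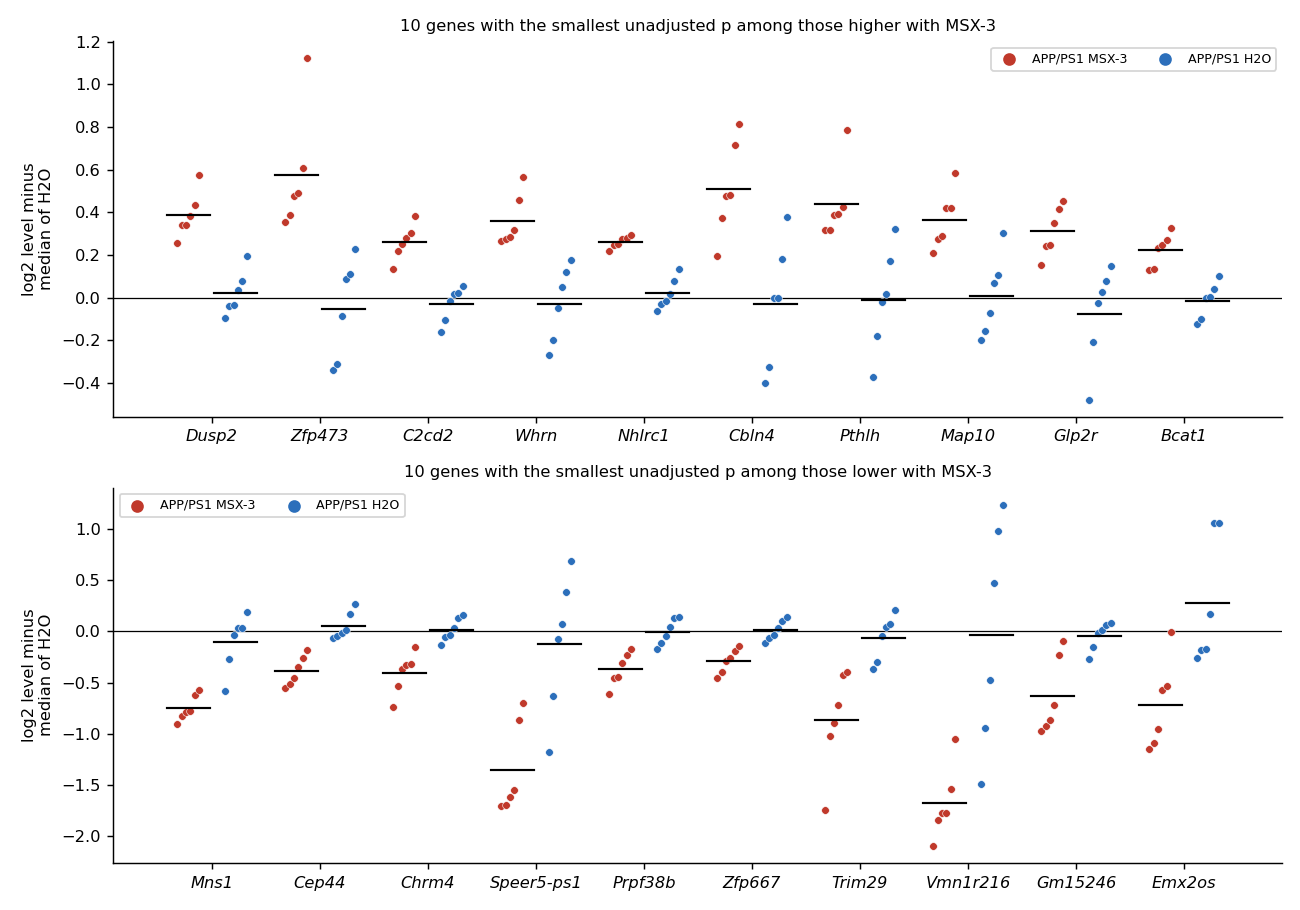
Level in each APP/PS1 cortex mouse minus the median of the 6 H2O mice (log2) for the 10 genes with the smallest p on the higher and on the lower side. Points are mice of MSX-3 and H2O, and the genes were chosen for their difference, so the plot describes and does not test it.

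Whether the antagonist acted otherwise in the absence of amyloid was asked with the interaction of genotype and treatment in the cortex. No probe of 37904 (0%) was called, 0 passed the adjusted p alone, 1771 (4.67%) reached unadjusted p under 0.05 and the smallest adjusted p was 0.753 in limma. Trim34a, a TRIM ubiquitin ligase, had the smallest p of the genes. It was -3.57 to -2.68 (median -3.08) in APP/PS1 MSX-3 and -2.93 to -2.45 (median -2.74) in APP/PS1 H2O, a difference of -0.35, whereas the difference in WT cortex was 0.45 (interaction -0.80). Tspear differed by -0.57 in APP/PS1 and by 1.14 in WT, and Dennd4c by 0.07 and -0.39. The median interval of the interaction reached 0.44 to either side, and 46.0% of the intervals lay inside a 1.5-fold change. Treatment and slide cannot be told apart for most WT mice, as given above, and this enters the interaction.

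The same mice gave hippocampus arrays, so that the effect in the cortex was compared with that in the hippocampus within each mouse. Of 36111 probes 0 (0%) were called, 0 passed the adjusted p alone, 3537 (9.79%) reached unadjusted p under 0.05 and the smallest adjusted p was 0.501 in limma. Without mouse 266, 1 probe with no gene name was called, and 0 were called without any other single mouse. Mouse 267, whose level of the Y-linked gene Eif2s3y was 0.45 in the cortex and 1.42 in the hippocampus, is among those left out in turn, and 2346 probes reached unadjusted p under 0.05 without it. Of the other Y-linked genes, Ddx3y in mouse 267 was -2.57 in the cortex and -1.48 in the hippocampus, while Uty was -1.43 and -1.41. Whether both arrays of mouse 267 came from 1 mouse was not tested. For C2cd2 the cortex differed by 0.29 and the hippocampus by -0.08 (difference of the effects 0.37). Pdlim3, a PDZ and LIM protein of the actin cytoskeleton, ran from -3.02 to -2.39 (median -2.87) in MSX-3 cortex and from -4.04 to -3.01 (median -3.18) in H2O cortex, a difference of 0.59 beside -0.20 in the hippocampus (difference of the effects 0.79). Olfr799, an olfactory receptor, was well above background on 0 of 6 MSX-3 and 1 of 6 H2O cortex arrays, and no fold is given.

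Glial genes and the drug target are given side by side for the 3 settings, without a test between settings other than those named. Clec7a differed by 0.11 in APP/PS1 cortex, 0.32 in the hippocampus and -0.37 in WT cortex, Gfap by 0.24, 0.25 and 0.14, and Ccl4 by 0.34, 0.42 and -0.70. The interaction was 1.04 for Ccl4 (95% CI 0.19 to 1.89, limma adjusted p = 0.753) and 0.10 for Gfap (95% CI -0.36 to 0.56, adjusted p = 0.916). In WT H2O cortex 3 of 5 arrays read Ccl4 well above background. Adora2a differed by 0.11, 0.16 and -0.00, and App by 0.12, -0.12 and 0.08.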

How the data were processed

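RNA of one hemisphere (cortex and hippocampus) was labelled with Cy3 and hybridised to 1-colour Agilent 8x60k mouse arrays, 1 array per mouse and tissue. The deposited intensity values are processed signals of Agilent Feature Extraction 10.7.3.1, background-subtracted but not normalized between arrays, and the deposited value matrix held the same intensity values. The deposited flags (other columns) mark spots well above background and outlier spots. The authors used GeneSpring with the 75th percentile, a moderated test and a fold of 1.5. Here log2 of the processed signal minus the array's 75th percentile over non-control spots was used, outlier spots were left out and spots of a probe averaged. A probe was kept where 1 or more of the 4 cortex groups had 4 or more arrays flagged well above background. Of 56605 probes 33042 had a gene name, 32994 through RefSeq accessions and 48 through tables of the study. A gene was represented by its kept probe with the highest mean.

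Groups were taken from the titles. Differences were tested in limma 3.58.1 (R 4.3.3, lmFit and eBayes) with Benjamini-Hochberg adjustment over all kept probes. Permutation tests were written in Python 3.11.15 with numpy 2.4.6, with ranks from scipy 1.17.1, tables from pandas 2.3.3 and plots from matplotlib 3.10.9. The genotype difference was an interaction term over 22 arrays, and the tissue difference was fitted to cortex minus hippocampus within each mouse. The fit of the 2 APP/PS1 cortex groups was tested on simulated data, and the interaction and tissue fits were not. In WT cortex 2 arrays whose spot grid had not been found were left out. Genes named are those the study names, the 10 with the smallest p in each direction, those with the smallest p in each list (up to 3, or 2 of a marker list) and the 3 with the smallest p in each test of a difference, and some of them are not reported here. Members, lists and tests were chosen with earlier results of these data known. Alternatives were other background corrections, normalizations, filters, weights, covariates and blocks, and each mouse left out in turn. The number of arrays limits the precision.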

Additional observations from a re-analysis of the deposited data

Results flagged for a closer look

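In 15 of 248 tests of a gene in a group of 6 mice, 1 mouse lay far from the other 5 by Dixon's criterion (critical value 0.625), and chance gives about 1 in 20. In the H2O group mouse 255 was lowest for App (5.54, next 5.85), Gapdh (6.70, next 7.09) and Psenen (3.30, next 3.46). Mouse 261 of the H2O group was lowest for the microglial genes Cd68 (1.42, next 1.87) and Cst7 (1.46, next 2.10). Mouse 259 was lowest for Grip1 (-0.64, next -0.36), and mouse 81 was highest for Slc29a1 (0.36, next 0.04).

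In the MSX-3 group mouse 267 was highest for Aplp1 (5.86, next 5.61), Ctsl (3.48, next 3.40) and Il1b (-3.71, next -4.65). Mouse 293, which also had the highest blood level, was lowest for Aqp1 (-6.65, next -4.95) and highest for Hspe1 (3.86, next 3.50), Pthlh (-1.93, next -2.29) and Zfp473 (-3.95, next -4.46). Mouse 319 was highest for Ngfr (-3.0, next -3.20).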

How the results depend on the processing

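None of 28 alternatives called a probe in limma, and the smallest adjusted p ranged from 0.0759 (without mouse 259) to 0.999 (slide as a block). Among the 28, the deposited value matrix repeated the main fit. Scan day as a block is the same fit as leaving out mouse 255, so these are not separate checks. Against 2166 probes at unadjusted p under 0.05, 1115 were left with the share of spots well above background as covariate, 1023 with the slide as a block and 1222 with scan day as a block. Leaving out each mouse in turn gave 1222 (without mouse 255) to 3312 (without mouse 323), with 1361 without mouse 325, and leaving out mice 255 and 293 together, chosen after seeing the data, gave 994. Of the probes at p under 0.05, 42.9% were higher, against 59.9% after quantile normalization, 53.9% after normexp, 53.2% with an intensity trend and 26.7% with the percentile over kept probes. Of 39 named genes at unadjusted p under 0.05, 23 lost it in some setting and 0 changed sign, whereas 12 of 31 list medians changed sign in some setting.

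The difference from WT cortex had 0 calls in 16 alternatives, with 168 (all 24 arrays) to 8542 (array weights) probes at unadjusted p under 0.05, 683 with the slide as a block, and 5103, 3535 and 2712 without WT mice 282, 258 and 308. Leaving out the WT mice was chosen after seeing the data. The cortex and hippocampus were paired by mouse, and without this replicate block 0 probes were called and 2135 reached p under 0.05 (3537 with it), against 1177 with scan day as a block and 5301 with array weights. Leaving out each of the 12 mice, chosen after seeing the data, gave 0 to 1 calls (1 without mouse 266, a probe with no gene name, limma adjusted p = 0.0137) and 2050 (without mouse 255) to 4698 (without mouse 323) probes at p under 0.05, with 2346 without mouse 267. The causes were not tested. Probes in the dimmest of 4 equal bins had a median interval of 0.53 to either side, against 0.21 in the brightest.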

Other observations

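Y-linked genes were looked at after their values were seen. The probe with the smallest p of all 37904 was one of 3 for Kdm5d, a histone demethylase, at -5.50 to -4.99 (median -5.20) in MSX-3 and -4.66 to -3.98 (median -4.30) in H2O, a difference of -0.92 (SE 0.12, limma adjusted p = 0.179). It was well above background on 1 of 6 MSX-3 and 5 of 6 H2O arrays, so most of its MSX-3 levels lay below what could be read. All 7 kept probes of the Y-linked genes were lower in MSX-3, Ddx3y by -0.49, Uty by -0.53, Eif2s3y by -0.51 and -0.58, and the other Kdm5d probes by -0.47 and -0.53. All mice were labelled male, and the single Xist probe was well above background on 1 of 12 arrays.

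The brighter probe of Eif2s3y, a translation initiation factor subunit, was 1.22, 0.45, 0.19, 0.61, 0.56 and 1.33 in the cortex of MSX-3 mice 266, 267, 281, 283, 293 and 319. In their hippocampus it was 1.36, 1.42, 0.58, 0.57, 0.38 and 1.19. The tissues were paired by the labelled mouse number, and why mouse 267 differed between them was not tested. The 6 H2O mice ran from 1.03 to 1.39 in the cortex and from 1.09 to 1.58 in the hippocampus. WT MSX-3 cortex ran from -0.08 to 0.39 and WT H2O cortex from -0.00 to 1.25.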
